A study of Mus musculus with 18 samples.

Results

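Amh and Wt1 were read in ovaries of mice with an excess of luteinizing hormone, as the 4 probe sets that the array annotation ties to either gene out of 13179 probe sets on both chip types. The annotation names 6581 genes in all. The probe sets of these 2 were taken by gene symbol, whatever their values, and all 4 lie on the second chip type, called chip B here. Total RNA of ovaries in 9 conditions had been read on 2 kinds of oligonucleotide chip, 1 array of each kind per condition, which makes 18 arrays. The tested ovaries came from LHCTP transgenic mice, which the labels describe as hypersecreting luteinizing hormone. At 2 months the transgenic ovaries were cystic, in CF-1 mice and in the CF-1xC57BL/6 hybrid. At 5 months the CF-1 transgenic ovary was a granulosa cell tumour and the hybrid transgenic ovary a luteoma. A further CF-1 transgenic ovary of 5 months came from an animal given human chorionic gonadotropin (hCG) and had formed a luteoma. Wild-type ovaries of each strain and age served as the comparison, and none of these was treated with hCG. The age of the tumour on chip B is 2 months in the description and 5 months in the title and the source, and the last was used. Neither replicate mice nor pooling are named in the labels, so the spread between mice of one condition is unknown.

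Amh encodes anti-Müllerian hormone, a secreted protein of the TGF-beta family. In the postnatal ovary it is made by granulosa cells of growing follicles, most strongly in preantral and small antral follicles, and it restrains the recruitment of primordial follicles and the response to follicle-stimulating hormone. It signals through its own type II receptor, Amhr2, and through BMP type I receptors and Smads. Wt1 encodes a zinc finger transcription factor that the gonads and kidneys need to form. In the ovary it is known from granulosa cells, most strongly in early follicles, and from the surface epithelium. Both genes are also known from Sertoli cells, the counterpart of granulosa cells in the testis.

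The arrays of a chip type were scaled to one trimmed mean, since the deposited trimmed means on chip B differed by up to 1.70-fold. Levels below are scaled intensities, in units that allow comparison of 1 probe set between arrays but not of different probe sets. On chip B values were raised to a floor of 291 units before taking log2, and counted as detected from the limit of 2 floors, 581 units. On the first chip type the floor was 184 units and the detection limit 368 units. Each gene below is read by the limits of its own chip type. Bmpr1a, Gata4, Ccnd2, Kitl and Gdnf are among those on the first. Of the 4 probe sets, 3 passed the filter of at least 2 detected arrays, 1 for Amh and 2 for Wt1. The fourth probe set is annotated to Plekhj1, Sf3a2 and Amh together. In the RefSeq gene table of GRCm38.p6, Sf3a2 is the gene next to Amh and Plekhj1 the one beyond it. That shared probe set lay under the floor on 8 arrays and at 429 units, under the detection limit, in the hybrid luteoma, so it is not read as Amh. Both Wt1 probe sets carry the same source sequence in the annotation and were kept apart as the first and the second.

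Amh was highest in the cystic ovaries and lowest in the transgenic ovaries of 5 months, while the 4 wild-type ovaries lay close together between them. It stood at 2916 units in the CF-1 cystic ovary, against 1398 units in the CF-1 wild type of 2 months. It stood at 3913 units in the hybrid cystic ovary, against 1444 units in the hybrid wild type of 2 months. The cystic ovaries thus had 2.09-fold and 2.71-fold the wild-type level of their strain. At 5 months the order was the other way round. Amh was at 415 units in the CF-1 tumour and at 576 units in the hCG-treated CF-1 ovary, both under the detection limit, against 1157 units in the CF-1 wild type. In the hybrid luteoma it was at 837 units, against 1704 units in the hybrid wild type. These were 2.79-fold, 2.01-fold and 2.04-fold lower levels in the tumour, the hCG-treated ovary and the hybrid luteoma. No array of a cystic ovary and none of the later transgenic ovaries fell inside the wild-type range of 1157 to 1704 units.

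**Figure D1:**
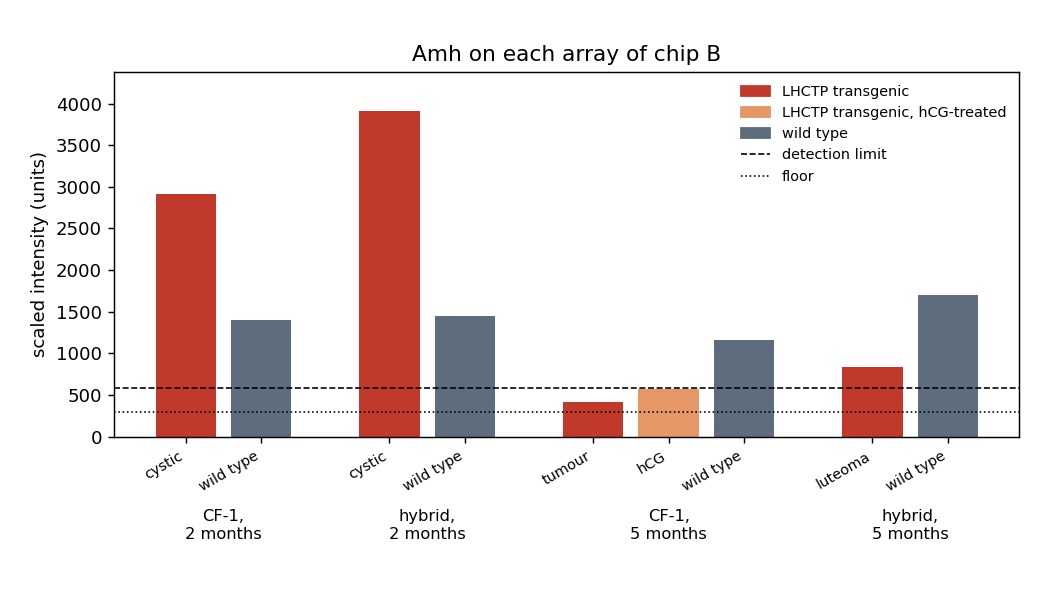
Scaled intensity of Amh (units, linear axis) on the 9 arrays of chip B, 1 bar per array, with each transgenic ovary left of the wild type of its strain and age and lines for the floor and the detection limit. Both cystic ovaries stand at 2916 and 3913 units, above all 4 wild types, and the tumour, the hCG-treated ovary and the hybrid luteoma at 415, 576 and 837 units, below all of them.

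With 1 array on each side these comparisons have no test, and no 2 arrays of a chip type are of one condition. The ratio between the wild types of both strains was taken as a spread, which includes any strain difference. Between the wild types of both strains at one age, 95% of 4572 ratios on chip B were under 2.37-fold, and the median ratio was 1.23-fold. The Amh ratios of the hybrid cystic ovary and of the tumour exceeded that spread, although the first did not without scaling and the second did not with the floor doubled, while those of the CF-1 cystic ovary, of the hCG-treated ovary and of the hybrid luteoma did not. At the 2-fold mark, 2.95% of the 6408 tested probe sets were higher in the CF-1 cystic ovary and 4.35% in the hybrid cystic ovary. At the same mark 7.1% were lower in the tumour, 6.98% in the hCG-treated ovary and 8.27% in the hybrid luteoma, each against its wild type. Taken singly, ratios of this size were therefore seen for 189 to 530 probe sets in a comparison.

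The ratios were also read together. Amh was the 1 probe set of 6408, or 0.0156%, at least 2-fold higher in both cystic ovaries and at least 2-fold lower in the tumour and the hybrid luteoma. That rule was written after the values were seen, and Amh passed the 2-fold mark narrowly in 2 of the 4 ratios. With values scaled to the median of detected probe sets, left unscaled or with the floor doubled, no probe set met it. A rule on order alone asked for both cystic ovaries above, and the 3 transgenic ovaries of 5 months below, all 4 wild types. It was met by 16 probe sets, or 0.25%, and Amh was among them. Of these, 8 carry a gene symbol: Amh, Cd151, Eif4a1, Kifap3, Naa15, Snrnp70, Vdac1 and Vil1. On the unscaled values the order rule was met by 1 probe set, which was Amh.

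**Figure D2:**
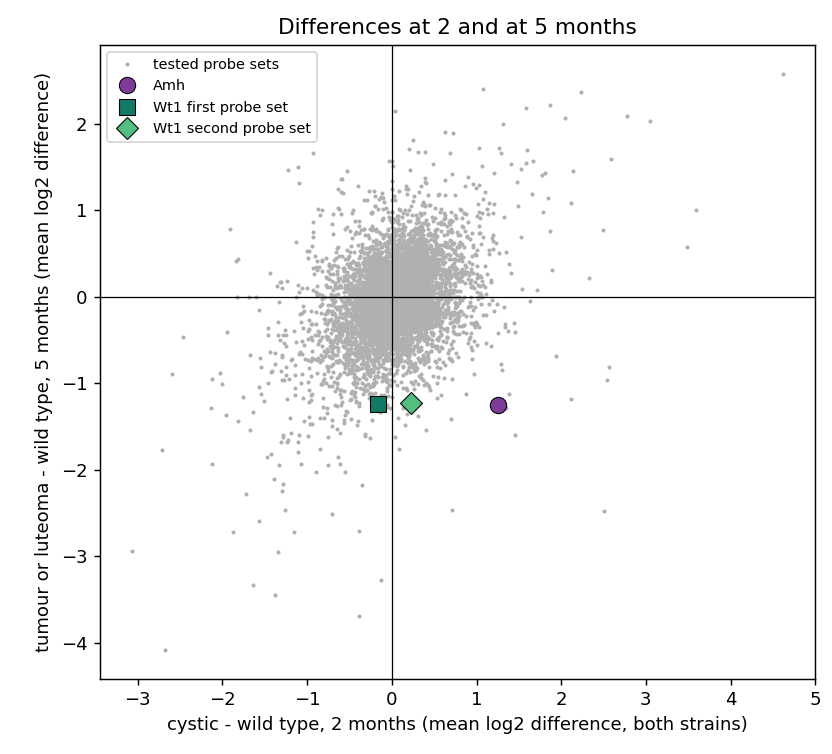
Each grey point is 1 of the 6408 tested probe sets, by its mean log2 difference of cystic minus wild type at 2 months (horizontal) and of tumour or luteoma minus wild type at 5 months (vertical), each over both strains. Amh lies at 1.25 and -1.25, to the lower right, while the Wt1 probe sets lie at -0.16 and -1.24 and at 0.23 and -1.23.

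The deposited, unscaled intensities gave the same directions for Amh. They stood at 2176 units in the CF-1 cystic ovary against 1126 in its wild type, and at 2926 units in the hybrid cystic ovary against 1679 in its wild type. At 5 months they stood at 507 units in the tumour and 534 in the hCG-treated ovary, against 1292 in the CF-1 wild type. They stood at 1061 units in the hybrid luteoma against 1707 in the hybrid wild type, a 1.61-fold lower level. The place of Amh among all probe sets of an array, which needs no scaling, followed the same order. Amh was brighter than 91.5% and 93.3% of chip B probe sets in the CF-1 and hybrid cystic ovaries, against 84.8% and 85.3% in their wild types. It was brighter than 65.1%, 70.5% and 76.3% in the tumour, the hCG-treated ovary and the hybrid luteoma. In the CF-1 and hybrid wild types of 5 months those shares were 81.9% and 86.5%.

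Across transgenic ovaries the span of Amh was wide. The level was 7.03-fold lower in the tumour and 5.06-fold lower in the hCG-treated ovary than in the cystic ovary of CF-1 mice. It was 4.68-fold lower in the hybrid luteoma than in the hybrid cystic ovary. Calls at 3-fold with the lower level in the later ovary covered 3.5% of probe sets for the tumour, 1.5% for the hCG-treated ovary and 1.56% for the hybrid luteoma. The wild types showed no such span: Amh was 1.21-fold lower at 5 than at 2 months in CF-1 and 1.18-fold higher at 5 than at 2 months in the hybrid. Among all 9 levels in order, no 2 neighbours were further apart than the 2.37-fold wild-type spread, and the largest step was between the CF-1 cystic ovary and the hybrid wild type of 5 months.

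Genotype, strain and age were fitted together with limma to the arrays without hCG, 8 per chip type, 4 transgenic and 4 wild type, with p-values adjusted over the 6408 probe sets. The p-values measure the spread between single arrays of different conditions, not between mice. The mean Amh level did not separate the genotypes: it was 2020 ± 1670 units in transgenic and 1426 ± 224 units in wild-type ovaries (SD, n = 4 each). The fitted log2 difference, transgenic minus wild type, was -0.0022 ± 0.49 (SE), with a 95% interval from -1.14 to 1.14. An exact 2-sided permutation test of genotype over the 8 arrays gave p = 1, where 0.0286 is the smallest p it allows. By limma's genotype term 0% of the probe sets passed an adjusted p of 0.05, and 642 had an unadjusted p under 0.05, where 320 are expected by chance.

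The transgenic minus wild-type difference of Amh changed sign between the ages. The interaction of genotype with age was -2.50 ± 0.42 on the log2 scale (SE), with a 95% interval from -3.50 to -1.51. In words, the transgenic minus wild-type difference was lower at 5 than at 2 months by that amount, and it was positive in both strains at 2 months and negative in both at 5 months. Ranked by limma's p for this term, 0 of the 6408 probe sets came before Amh. It did not pass after adjustment, with limma's adjusted p = 1.0. For this interaction 0% of probe sets passed the adjusted threshold and 2.76% an unadjusted p of 0.05, 177 in all, fewer than the 320 expected by chance. The age pattern of Amh was in view before this term was chosen, so its rank is a description.

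The other terms of the fit did not set Amh apart. The age difference, 5 minus 2 months over both genotypes, was -1.27 ± 0.49 on the log2 scale (SE), with limma's adjusted p = 0.227. By age 0.0156% of probe sets passed the adjusted threshold and 19.5% an unadjusted p of 0.05. The strain difference, hybrid minus CF-1, was 0.51 ± 0.49 on the log2 scale (SE), with limma's adjusted p = 0.801, and by strain 0.0312% of probe sets passed. The interaction of genotype with strain was 0.42 ± 0.99 on the log2 scale (SE), with limma's adjusted p = 0.949. For that interaction 0% of probe sets passed, and 348 had an unadjusted p under 0.05.

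Wt1 behaved differently from Amh: it was lowest in the tumour and stayed within the wild-type spread in the other transgenic ovaries. Its first probe set stood at 1219 units in the CF-1 tumour and 3611 units in the hCG-treated ovary, against 5767 units in the CF-1 wild type of 5 months. It stood at 3751 units in the hybrid luteoma, against 4429 units in the hybrid wild type of 5 months. The tumour was thus 4.73-fold lower than its wild type, the hCG-treated ovary 1.60-fold lower and the hybrid luteoma 1.18-fold lower. At 2 months the first probe set was at 4948 units in the CF-1 cystic ovary against 4718 units in its wild type, and at 4027 units in the hybrid cystic ovary against 5304 units in its wild type. Of these 5 ratios, the one for the tumour exceeded the 2.37-fold wild-type spread and the others did not.

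The second Wt1 probe set gave the same low point. It was at 198 units in the tumour, under the floor, and at 920 units in the hCG-treated ovary, against 914 units in the CF-1 wild type of 5 months. The tumour level was therefore at least 3.14-fold lower than that of its wild type. With the floor doubled that bound was a log2 difference of -0.65, inside the wild-type spread. The hybrid luteoma was at 730 units, against 1272 units in its wild type, a 1.74-fold lower level. At 2 months the second probe set was at 1363 units in the CF-1 cystic ovary against 986 units in its wild type, and at 1109 units in the hybrid cystic ovary against 1112 units in its wild type. Both Wt1 probe sets were detected in all ovaries except that the second fell under the floor in the tumour.

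**Figure D3:**
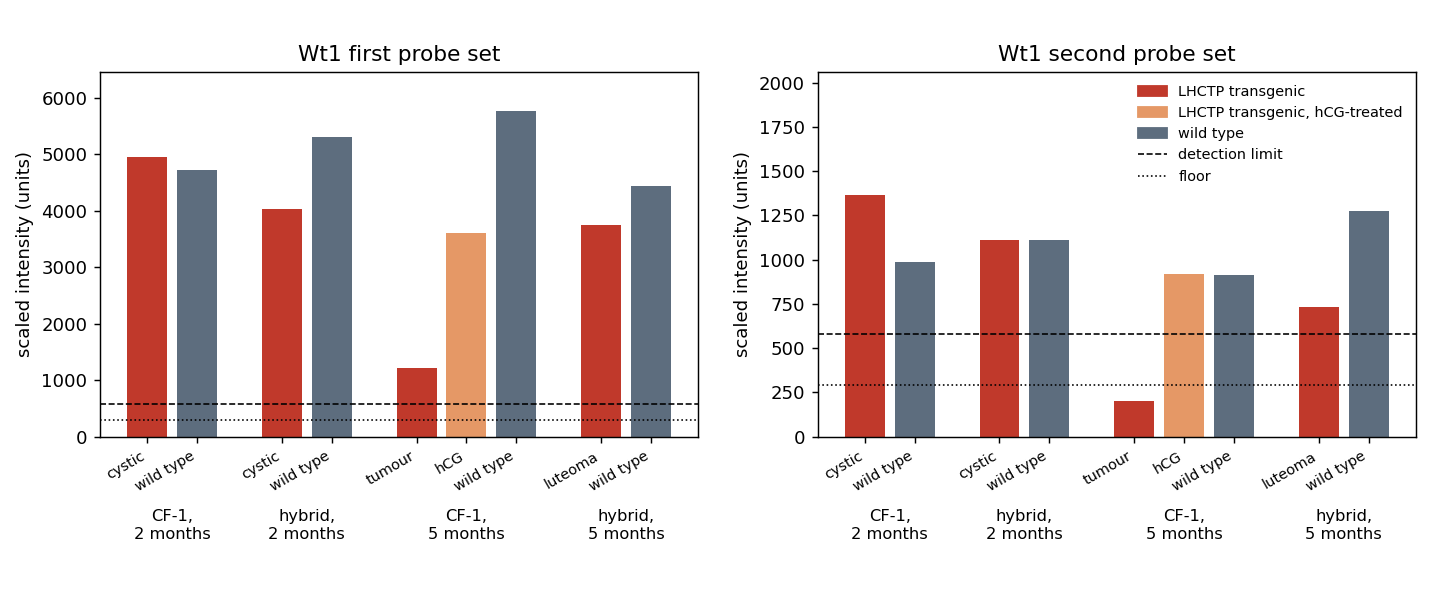
Scaled intensity (units, linear axes that differ between panels) of the first and the second Wt1 probe set on the 9 arrays of chip B, with each transgenic ovary left of the wild type of its strain and age. The tumour is the lowest bar in both panels, at 1219 and 198 units, and the first probe set stays at 3611 units or above on the other arrays.

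The tumour stood below every other condition for Wt1, not only below its wild type. The first probe set was 4.06-fold lower in the tumour than in the cystic ovary of CF-1 mice, and the second was at least 4.69-fold lower. Against the tumour the hybrid luteoma had 3.08-fold the level of the first probe set and at least 2.51-fold that of the second. Against the tumour the hCG-treated ovary had 2.96-fold the level of the first and at least 3.16-fold that of the second. A tumour level at least 2-fold below each of the other 8 arrays was found for 1.62% of probe sets, both Wt1 probe sets among 104. At 3-fold, 2.95% of probe sets were lower in the tumour than in its wild type and 3.32% higher in the hybrid luteoma than in the tumour. At 2-fold, 13.2% were higher in the hCG-treated ovary than in the tumour. In the order of levels, the step down to the tumour was the one that exceeded the wild-type spread, for both probe sets, and the neighbours above it could not be told apart.

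Between genotypes Wt1 averaged 3486 ± 1596 units in transgenic and 5055 ± 598 units in wild-type ovaries for the first probe set (SD, n = 4 each). The second averaged 850 ± 507 units in transgenic and 1071 ± 157 units in wild-type ovaries (SD, n = 4 each). The limma differences, transgenic minus wild type, were -0.70 ± 0.38 and -0.50 ± 0.37 on the log2 scale (SE), with adjusted p = 0.603 and 0.721. Their 95% intervals ran from -1.58 to 0.18 and from -1.36 to 0.36. The exact permutation p was 0.0857 and 0.429. Without the tumour array the limma differences were -0.23 and -0.09. The age differences of -0.52 and -0.69 and the strain differences of 0.28 and 0.42 on the log2 scale did not pass limma's adjusted threshold either. The interaction of genotype with age was -1.08 ± 0.70 for the first and -1.46 ± 0.56 for the second probe set (SE), with limma's adjusted p = 1.0 for both. Without the tumour these were -0.18 and -0.85.

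**Figure D4:**
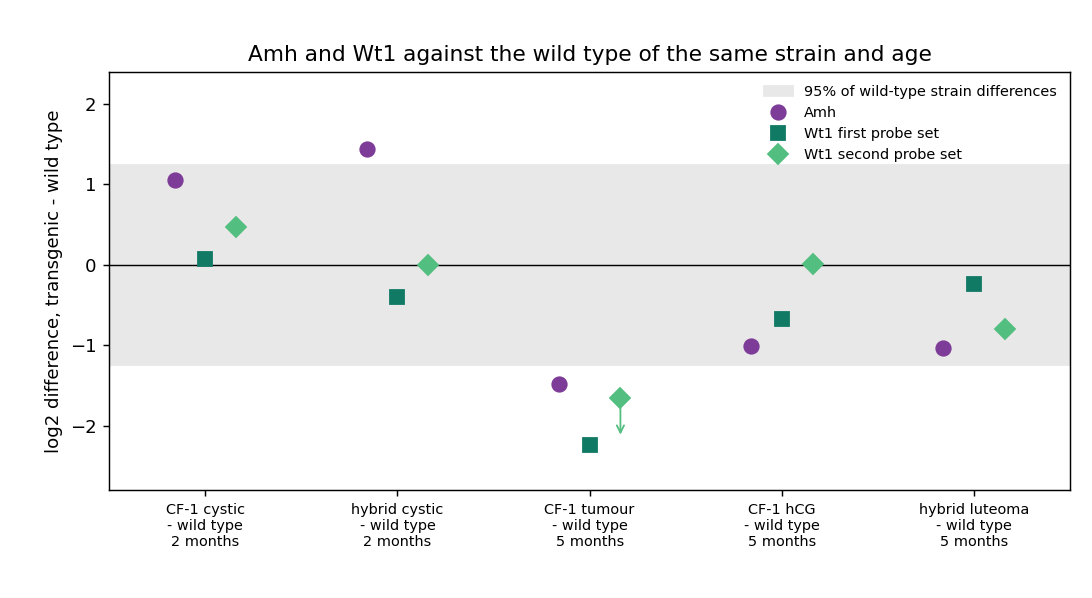
Log2 difference, transgenic minus the wild type of the same strain and age, for Amh and both Wt1 probe sets in 5 comparisons of 1 array each. The grey band spans the 2.37-fold ratio that holds 95% of the differences between wild types of both strains, and the arrow marks a tumour level under the floor. Amh is above 0 in both cystic ovaries and below 0 in the 3 later ovaries, and Wt1 leaves the band in the tumour alone.

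In whole ovaries, fewer cells that make a transcript and less of it per cell cannot be told apart, and this holds for all levels above. Over the 9 arrays Amh correlated with the first Wt1 probe set at r = 0.63 and with the second at r = 0.77, as a description of arrays that share conditions. Without the tumour these were 0.27 and 0.72 over 8 arrays. The Wt1 probe sets correlated with each other at r = 0.91, and at 0.36 without the tumour. On chip B the 3' to 5' signal ratio of actin was 2.09 in the tumour and 1.73 in the hybrid luteoma, within or next to the 1.75 to 2.97 of the wild types. Of the control spots for the opposite strand, BioDn was at 533 units in the tumour and 72.0 in the hCG-treated ovary, against 531 in the CF-1 wild type of 5 months. It was at 719 units in the hybrid luteoma, against 121 in the hybrid wild type of 5 months. BioB was at 506 units in the tumour and 207 in the hCG-treated ovary, against 272 in the CF-1 wild type of 5 months. It was at 668 units in the hybrid luteoma, against 216 in the hybrid wild type of 5 months. The part of array quality in the Amh and Wt1 levels was not tested.

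None of the measured genes through which anti-Müllerian hormone signals reached a 3-fold difference from wild type. Of 13 listed genes, 9 were on the chips and 6 passed the filter. Amhr2, the specific receptor, was not analysed here. Of the type I receptors, Bmpr1a, which BMPs also use, was at 551 and 345 units in the CF-1 and hybrid cystic ovaries, against 422 and 473 units in their wild types. The 345 units lay under the detection limit. Acvr1 and Bmpr1b did not pass the filter. The receptor Smads were represented by Smad1, at 714 units in the tumour and 971 in the hybrid luteoma, against 784 and 852 units in their wild types. Smad4, the common partner of receptor Smads, was at 2589 units in the tumour against 1572 units in its wild type.

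Id1, Id2 and Id3, inhibitors of helix-loop-helix factors that BMP-type Smads induce, are known readouts of this branch. Id2 was at 5350 and 5475 units in the CF-1 and hybrid cystic ovaries, against 2849 and 3411 units in their wild types. At 5 months Id2 was at 2602 units in the tumour, against 3892 units in the CF-1 wild type, and at 7457 units in the hybrid luteoma, against 3859 units in the hybrid wild type. Id1 was at 4979 units in the hybrid luteoma, against 2334 units in the hybrid wild type. Both ratios in the luteoma lay inside the 2.37-fold spread of the wild types on chip B. Id3 was at 9291 units in the tumour, against 3934 units in the CF-1 wild type, and at 5407 units in the hybrid luteoma, against 5590 units in the hybrid wild type. Of the 6 genes, 0 reached 3-fold in any of the 5 comparisons with a wild type. The shares of all probe sets 3-fold different either way were 1.23% in the CF-1 cystic ovary, 2.23% in the hybrid cystic ovary, 4.42% in the tumour, 3.84% in the hybrid luteoma and 3.64% in the hCG-treated ovary. The median log2 difference of the 6 genes was 0.27 in the CF-1 cystic ovary and -0.10 in the hybrid cystic ovary, beside 0.01 over all probe sets in each.

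Factors known to act on Amh in gonads were mostly higher in the tumour, where Amh was low. In the hCG-treated ovary and the hybrid luteoma most were lower, as Amh was. Of 13 listed genes, 7 were on the chips and 5 passed the filter, and 0 of these reached 3-fold in any of the 5 comparisons. Of all tested probe sets 1.23% to 4.42% reached 3-fold in a comparison. In the tumour 4 genes were higher and 1 lower, with a median log2 difference of 0.46 beside 0.01 over all probe sets. All 5 were lower in the hybrid luteoma, with a median of -0.54 beside -0.07. In the hCG-treated ovary 4 were lower and 1 higher, with a median of -0.62 beside 0. The CF-1 cystic ovary had 2 higher and 3 lower, with a median of -0.07. In the hybrid cystic ovary all 5 were lower, with a median of -0.13, beside 0.01 over all probe sets in each strain. Nr5a1, the orphan receptor SF-1 that binds the Amh promoter, was at 5524 units in the tumour against 5080 units in its wild type. It was at 4818 units in the hybrid luteoma against 4880 units in the hybrid wild type. Gata4, a zinc finger factor of granulosa cells, was at 1494 units in the tumour against 679 units in its wild type, the opposite direction to Amh. In the hybrid cystic ovary, where Amh was highest, Gata4 was at 271 units, under the detection limit, against 614 units in its wild type. In the direction of Amh, Gata4 was at 282 units, under the detection limit, in the hCG-treated ovary, against 679 units. It was at 560 units in the hybrid luteoma against 816 units in its wild type. Gdf9 was at 1223 units in the tumour and 1865 in the hybrid luteoma, against 1782 and 3243 units in their wild types. Esr2, the estrogen receptor of granulosa cells, was at 619 units in the hCG-treated ovary and 770 units in the hybrid luteoma, against 1147 and 1535 units in their wild types. Gata6, a relative of Gata4, was at 4138 units in the tumour against 3000 units in its wild type.

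Of 30 listed partners and reported targets of WT1, 20 were on the chips and 16 passed the filter. In the tumour, where Wt1 was lowest, 3 of the 16 reached 3-fold, with Pdgfa and Thbs1 higher and Sdc1 lower. Of all tested probe sets 4.42% reached 3-fold either way in that comparison. Pdgfa, which encodes a platelet-derived growth factor chain, was at 4489 units in the tumour against 769 units in its wild type. Thbs1, a matrix glycoprotein, was at 5110 units in the tumour against 1248 units in its wild type. Sdc1, a cell surface proteoglycan, was at 163 units in the tumour, under the floor, against 921 units in its wild type. Wnt4 was below 0 in the tumour against 745 units in its wild type. Cdh1 was at 101 units there, under the floor, against 693 units. With their tumour values raised to the floor, Wnt4 and Cdh1 could not reach 3-fold. The median log2 difference of the 16 genes in the tumour was -0.33, beside 0.01 over all probe sets.

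In the hybrid luteoma, where Wt1 lay within the wild-type spread, 3 of the 16 reached 3-fold as well, beside 3.84% of all tested probe sets. Sdc1 was at 3191 units in the hybrid luteoma, against 423 units, under the detection limit, in the hybrid wild type. This was the opposite direction to the tumour. Cdh1, the epithelial cadherin, was at 381 units in the hybrid luteoma, under the detection limit, against 1512 units in its wild type. Wnt4, a secreted factor of the female gonad, was at 3574 units in the hybrid luteoma against 311 units, under the detection limit, in its wild type. In the cystic ovaries Wnt4 was the 1 gene of the 16 that reached 3-fold, beside 1.23% of all tested probe sets in CF-1 and 2.23% in the hybrid. Wnt4 was at 2318 and 1977 units in the CF-1 and hybrid cystic ovaries, against 408 and 602 units in their wild types. The 408 units of the CF-1 wild type lay under the detection limit. In the hCG-treated ovary 0 of the 16 reached 3-fold, beside 3.64% of all tested probe sets.

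Amh and Wt1 stood on the other side of most granulosa cell genes in the tumour. Of 20 listed genes of granulosa cells and growing follicles, 11 were on the chips and all 11 passed the filter. In the tumour 9 of the 11 were higher and 2 lower than in the CF-1 wild type, with a median log2 difference of 1.14 beside 0.01 over all probe sets. Hsd17b1, which makes estradiol from estrone, was at 16047 units in the tumour against 4478 units in its wild type. Inhba, which encodes an activin subunit, was at 12028 units in the tumour against 3080 units in its wild type. Ccnd2, the cyclin of granulosa cell division, was at 1030 units in the tumour against 337 units, under the detection limit, in its wild type. The 2 lower genes were Inha, at 14779 units in the tumour against 19568 units in its wild type, and Kitl. Kitl was at 247 against 350 units, both under the detection limit. Amh, at 415 units, under the detection limit, against 1157 units, was lower by more than either gene.

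In the hybrid luteoma granulosa cell genes and Amh lay on the same side. There 8 of the 11 genes were lower and 3 higher than in the hybrid wild type, with a median log2 difference of -0.54 beside -0.07 over all probe sets. Inhbb, another activin subunit, was at 711 units in the luteoma against 5987 units in its wild type, and Inhba at 1562 against 5891 units. In the cystic ovaries the granulosa list had medians of -0.08 in both strains beside 0.01 over all probe sets, with 4 genes higher and 7 lower in each. Inhbb was at 1190 and 1331 units in the CF-1 and hybrid cystic ovaries, against 4839 and 5454 units in their wild types, the opposite direction to Amh. In the hCG-treated ovary 5 of the 11 were higher and 6 lower than in the CF-1 wild type.

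**Figure D5:**
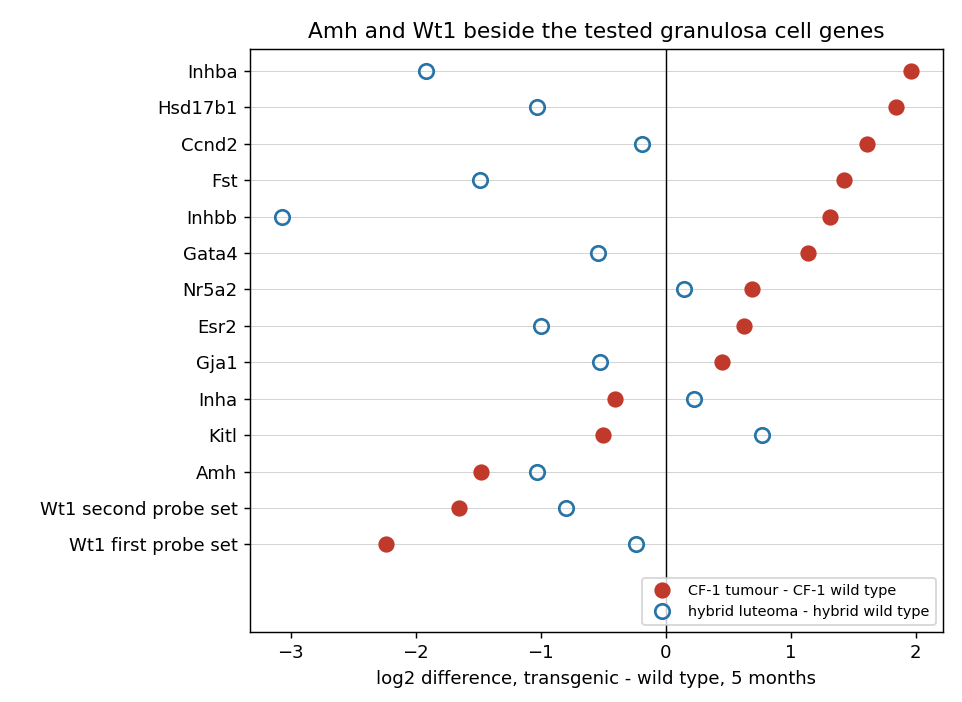
Log2 difference at 5 months for the 11 tested granulosa cell genes, Amh and both Wt1 probe sets, in the CF-1 tumour minus its wild type (filled) and in the hybrid luteoma minus its wild type (open), 1 array each. In the tumour Amh and Wt1 have the lowest values of all 14 entries, while 9 of the 11 granulosa cell genes are above 0.

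Genes of the testis-type support cell, where Amh and Wt1 are also made, were measured with 3 of 7 listed genes. Dhh, a hedgehog ligand of Sertoli cells, was at 2073 units in the tumour and below 0 in its wild type. Gdnf, a growth factor for germ cells, was at 2539 units in the tumour against 258 units, under the detection limit, in its wild type. Cldn11, a tight junction protein of Sertoli cells, was at 169 units in the tumour, under the floor, against 641 units in its wild type. In the hybrid luteoma Dhh was below 0 and Gdnf at 112 units, under the floor, against 617 and 474 units in the hybrid wild type. Cldn11 was at 252 units in that luteoma against 187 units in its wild type, both under the detection limit. Among the wild types Dhh ranged from below 0 to 617 units. In the cystic ovaries Cldn11 was at 790 and 633 units in CF-1 and the hybrid, against 180 and 164 units, both under the floor, in their wild types. Sox9, Dmrt1 and Sox8 were not analysed here.

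Most markers of the surface epithelium, the other ovarian source of Wt1, were lower in the tumour than in its wild type. Genes of several other cell types were low there too. Of 13 listed genes 8 passed the filter, and their mean log2 level was 9.15 in the tumour, against 10.49 to 10.95 in the 4 wild types. In the tumour 6 of the 8 were lower than in its wild type and 1 was higher. Krt18 and Krt19, keratins of simple epithelia, were at 151 and 160 units in the tumour, under the floor, against 1448 and 1834 units in its wild type. Krt7, the higher one, was at 1003 against 941 units, and Gas6 at 11007 against 12339 units. Msln was under the floor in both. In the hybrid luteoma the mean log2 level was 10.3, and the cystic ovaries of CF-1 and the hybrid had 10.2 and 10.6, where Wt1 was within the wild-type spread. Luteal genes, 6 of 12 listed passing the filter, had a mean log2 level of 9.99 in the tumour, against 12.5 to 13.5 in the wild types. Theca and interstitial genes, 5 of 9, had 11.1 in the tumour, against 13.02 to 14.02 in the wild types. Star, Hsd3b1 and Cyp11a1 count in both of these lists, so the 2 means are not independent. Epithelial genes of oviduct and uterus, all 5 listed, had 7.87 in the tumour, against 9.81 to 10.66 in the wild types. All 6 macrophage genes that passed were lower in the tumour than in the CF-1 wild type of 5 months, where their mean was highest. Their mean log2 level was 11.17 in the tumour, against 11.49 to 12.97 in the wild types. Against the other wild types Cd74 and H2-Aa were lower in the tumour, while Cd68, Lyz2, C1qa and C1qb were higher. The part of any of these cells in the Wt1 level was not tested.

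Oocyte genes were low on the arrays with the lowest Amh and also in 1 wild type. Of 18 listed genes 4 passed the filter, Zp1, Zp2 and Zp3 of the egg coat and Gdf9, a growth factor that oocytes send to granulosa cells. Their mean log2 level was 8.37, 8.72 and 9.15 in the tumour, the hCG-treated ovary and the hybrid luteoma, which were the arrays with the lowest Amh. It was 8.94 in the CF-1 wild type of 5 months, where Amh was at 1157 units, and 10.5 to 10.7 in the other 3 wild types. In the cystic ovaries, where Amh was highest, it was 10.65 and 10.25 in CF-1 and the hybrid, against 10.61 and 10.68 in their wild types. Zp2 was at 2085 and 2108 units in the CF-1 and hybrid cystic ovaries, against 2349 and 2595 units in their wild types. The part of follicle number in the Amh level was not tested.

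Genes whose profile over the 9 arrays was most like that of a member were taken from 895 candidates on chip B with 1 symbol. For Amh these were Eif4a1 (r = 0.94), Map4k1 (0.93), Cd34 (0.89), Ccdc93 (0.87) and Rrp12 (0.85). Eif4a1, a helicase of translation initiation whose probe set is of a kind that can match related sequences, was at 14386 and 14568 units in the CF-1 and hybrid cystic ovaries. It was at 8647, 9604 and 8743 units in the tumour, the hCG-treated ovary and the hybrid luteoma, and at 9926 to 11210 units in the wild types. Its range was thus far narrower than that of Amh. The profiles least like Amh were those of Lamtor5 (-0.88), Pim3 (-0.87) and Glg1 (-0.85). Pim3, a serine/threonine kinase, was at 911 and 1276 units in the CF-1 and hybrid cystic ovaries and at 3116, 3126 and 2617 units in the tumour, the hCG-treated ovary and the hybrid luteoma.

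For Wt1 the likeness rested on the tumour array. The first probe set was most like Bcap31, Atp1b1, Anxa2, Thbd and Entpd1 (r = 0.90 each), and least like Fbln2 (-0.94), Rcc1 (-0.89) and Bpgm (-0.89). Thbd, the thrombin receptor thrombomodulin, was at 206 units in the tumour, under the floor, and Anxa2, a membrane-binding annexin, at 3537 units there. Against these, the CF-1 wild type of 5 months had 1544 units of Thbd and 12810 units of Anxa2. Fbln2, a matrix protein, was at 6071 units in the tumour against 973 units in its wild type. The second probe set was most like Glud1 (0.95), Selenot (0.93), Bcap31 (0.91), Pnp (0.90) and Gadd45b (0.90), and least like Ppp1r15a (-0.90), Rnf19a (-0.88) and Bcan (-0.87). Bcap31, a protein of the endoplasmic reticulum, was the 1 gene named for both Wt1 probe sets. Without the tumour array, 0 of the 5 genes most like either Wt1 probe set and 2 of the 5 most like Amh were named again.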

How the data were processed

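The authors deposited 1 intensity per probe set and array on a linear scale, per the file headers and values, with some below 0. The software and scaling behind the deposited intensity values are not given in the sources. Probe sets were named from the platform annotation, updated by gene number through RefSeq. Members and gene lists were chosen with earlier results of these data known.

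Within a chip type, arrays were scaled to the mean of values from the 2nd to the 98th percentile. For each array the 25th percentile or the absolute 5th percentile was taken, whichever was larger, and the median of these set the floor. The filter kept probe sets that reached 2 floors on 2 or more arrays, 4122 on the first chip type and 2286 on chip B, and 76 control or shared probe sets of each were left out. Each chip type was fitted with limma 3.58.1 in R 4.3.3 (lmFit, eBayes) with additive genotype, strain and age, and each interaction in a fit of its own with 3 residual degrees of freedom. Adjustment was by Benjamini-Hochberg over both. On data simulated for chip B, with log2 changes of 2 either way and an SD of 0.309, the fit recovered 100% of the genotype and 94% of the interaction changes, with 1.48% and 4.57% false calls. That SD, the median of the wild types, was given to every probe set alike. Over the untreated transgenic arrays the log2 SD was 1.52 for Amh and 0.91 and 0.99 for the Wt1 probe sets. The simulation therefore checks the code and does not give the share of true changes found in these data. With 1 array a side, a call needed a 3-fold difference and the brighter value at the detection limit. Where 1 value lay under the floor, the fold uses the floor and is written as "at least". The number of arrays limits the precision.

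Named genes were all Amh and Wt1 probe sets, the 5 most and 3 least alike by Pearson correlation of log2 values, and list members with a call or a stated role. A gene with several probe sets was represented by the brightest. Alternatives were other floors, scalings, filters and variance models, and leaving out arrays. Python 3.11.15 was used.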

Additional observations from a re-analysis of the deposited data

Results flagged for a closer look

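The Amh difference between transgenic and wild-type ovaries ran in opposite directions at the 2 ages in both strains, with an interaction of genotype with age of -2.50 on the log2 scale. The interaction was tested with limma and did not pass after adjustment (adjusted p = 1.0, and 0.178 to 1.0 over the alternatives). Leaving out single arrays gave differences from -2.84 without the hybrid luteoma to -2.17 without the tumour.

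Among the 5 transgenic arrays, the hCG-treated one included, the first Wt1 probe set was far from the others in the tumour. The gap to the next array was 0.775 of the whole range on the log2 scale, above the critical value of 0.71 for 5 samples. These 5 arrays are of different conditions, and chance flags about 1 in 20 groups. The check was run for Amh and both Wt1 probe sets, at both ends of the wild-type and transgenic groups. No other array was flagged. Over the 4 untreated transgenic arrays the gap was 0.802 of the range, under the critical value of 0.829, and for the second probe set, with the tumour raised to the floor, it was 0.596.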

How the results depend on the processing

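No paired analysis was possible because each condition has 1 array per chip type and replicate numbers only name the chip types.

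Amh kept its direction against the wild type in all 5 comparisons under every floor and scaling tried. Its ratio in the hybrid cystic ovary was 1.74-fold without scaling, and its log2 difference in the tumour -0.99 with the floor doubled, both inside the 2.37-fold wild-type spread. Its fitted genotype difference, near 0, turned to 0.12 with the floor doubled and ranged from -0.43 to 0.44 over single arrays left out. The strain difference of the first Wt1 probe set ranged from -0.19, without the tumour, to 0.58. Without scaling, the first Wt1 probe set was 1.07-fold higher in the hybrid luteoma than in its wild type.

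Calls by genotype, 0 in the main setting, were 34 without scaling, 8 with trend and robust variances and 0 to 7 with single arrays left out, 7 without the tumour. Calls by age, 1 in the main setting, were 0 with the floor doubled, with quantile normalization or with trend and robust variances, 3 without the filter, 18 without scaling and 0 to 254 with single arrays left out, 254 without the hybrid wild type of 5 months. The lower floor is 0.5 of the main one. Calls by strain, 2 in the main setting, were 0 with the floor doubled, 1 with the lower floor or with trend and robust variances, 6 without the filter, 6 without scaling and 0 to 1 with single arrays left out. The genotype by age interaction gave 1 call without the filter, and genotype by strain gave 2 without the filter and 5 without scaling. None of these settings brought Amh or Wt1 past the adjusted threshold.

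Probe sets 3-fold lower in the tumour than in its wild type were 125 with the floor doubled and 455 at 2-fold, against 189 in the main setting. In the tumour against the CF-1 cystic ovary they were 123 with the floor doubled and 687 at 2-fold, against 224. In the hybrid luteoma against the hybrid cystic ovary they were 171 with the lower floor, 39 with the floor doubled, 33 without scaling and 439 at 2-fold, against 100. In the hCG-treated ovary against the CF-1 cystic ovary they were 40 with the floor doubled and 430 at 2-fold, against 96. Probe sets higher in the hybrid luteoma than in the tumour were 486 at 2-fold, against 213. The causes of these shifts were not tested. Added after seeing the data were every setting of the Amh and Wt1 interactions of genotype with age, the unscaled, median-scaled, unfiltered and left-out-array settings of the interaction call counts, and the order and opposite-direction rules.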
